A study of Mus musculus with 4 samples.

Results

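The nuclear genes for subunits of the oxidative phosphorylation chain were compared between *rd7* and wild-type mouse retinas. Members were taken by name from a table of gene expression, as rows beginning with *Nduf* followed by a, b, c, s or v and a digit, *Sdha* to *Sdhd*, and rows beginning with *Uqcr*, *Cox4* to *Cox8*, or *Atp5*. Of 85 such rows, all had a successful estimate in every library, and 82 had a mean of at least 1 FPKM (fragments per kilobase of transcript scaled to the mapped fragments of the library) and were kept. They are 82 of 22095 loci listed and of 12655 genes tested. The 3 rows left out were *Cox6a2* (mean 0.532 FPKM), *Cox7b2* (0.0222 FPKM) and *Cox8c* (listed at 0 in all libraries), known as isoforms of muscle or testis. The members nearest the limit were *Ndufa4l2* at 1.62 FPKM, *Cox8b* at 3.40 FPKM and *Atp5s* at 5.03 FPKM.

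The study sequenced 4 libraries of polyadenylated RNA from whole retinas at 3 weeks of age, 2 from *rd7* mice and 2 from wild-type mice, with reads of 50 bp on a single lane. The *rd7* animals are *Nr2e3* mutants, both groups are given as strain C57BL/6J, and the labels name no other allele or agent. *Nr2e3* encodes a transcription factor of developing rods. Each library held 8 retinas from 2 females and 2 males, so the spread within a genotype is that between pools of animals. In whole tissue, fewer cells of a type and less RNA per cell cannot be told apart.

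Oxidative phosphorylation takes place in the inner membrane of mitochondria. Complex I takes electrons from NADH and complex II takes them from succinate. Both pass them through ubiquinone to complex III, which hands them to cytochrome c, and complex IV gives them to oxygen. Complexes I, III and IV pump protons, and complex V, the ATP synthase, uses the proton gradient to make ATP. Some subunits of complexes I, III, IV and V are encoded in mitochondrial DNA, so the genes here cover the nuclear share of these complexes and all of complex II. Photoreceptors pack mitochondria into the ellipsoid of the inner segment and are among the most oxygen-demanding cells of the body.

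The letters upstream of 5 of these genes are given first, since 4 of them (*Ndufs7*, *Ndufb8*, *Ndufb7* and *Ndufa7*) were the members called lower in the main test and in all 9 refits described later, and *Cox8b* had the largest log2 fold change. Each is the run of 250 bases before the gene's start in RefSeq (GRCm38.p6, not the build of the expression files), 5′ to 3′ on the gene's strand. Capitals mark matches on either strand to the motifs searched, each a core of the letters known for a factor. For the factors tied to respiratory genes these were GCATGCG for the factor NRF1, CCGGAAG for the factor GABPA, AAGATGG for the factor YY1 and TCAAGGTCA for the estrogen-related receptors (ERR). For general promoter elements they were GGGCGG for the factor SP1 and TATAAA for the TATA box. For photoreceptor factors they were TAATCC for the homeodomain factor CRX and AAGTCA for the receptor NR2E3. Within the windows shown, the TATA and CRX letters overlapped once.
Ndufs7: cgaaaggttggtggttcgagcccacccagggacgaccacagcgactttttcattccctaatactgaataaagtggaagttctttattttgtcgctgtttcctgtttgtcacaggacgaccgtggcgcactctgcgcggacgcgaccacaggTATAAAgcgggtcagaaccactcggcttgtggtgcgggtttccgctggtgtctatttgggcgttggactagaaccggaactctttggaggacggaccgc
Ndufb8: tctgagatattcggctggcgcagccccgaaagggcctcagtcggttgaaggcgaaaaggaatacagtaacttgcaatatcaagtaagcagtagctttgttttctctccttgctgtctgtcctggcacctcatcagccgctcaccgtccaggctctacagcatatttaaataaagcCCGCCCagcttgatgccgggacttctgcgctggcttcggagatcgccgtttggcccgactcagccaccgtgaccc
Ndufb7: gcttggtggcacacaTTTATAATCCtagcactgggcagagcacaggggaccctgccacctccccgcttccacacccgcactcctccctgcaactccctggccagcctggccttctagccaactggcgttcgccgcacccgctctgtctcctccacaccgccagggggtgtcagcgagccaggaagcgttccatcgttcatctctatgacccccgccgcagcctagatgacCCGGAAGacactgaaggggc
Ndufa7: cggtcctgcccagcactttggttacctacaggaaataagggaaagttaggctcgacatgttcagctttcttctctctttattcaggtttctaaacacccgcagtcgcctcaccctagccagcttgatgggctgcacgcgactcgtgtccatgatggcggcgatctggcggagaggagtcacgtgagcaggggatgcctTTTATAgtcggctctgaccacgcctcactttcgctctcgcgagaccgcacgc
Cox8b: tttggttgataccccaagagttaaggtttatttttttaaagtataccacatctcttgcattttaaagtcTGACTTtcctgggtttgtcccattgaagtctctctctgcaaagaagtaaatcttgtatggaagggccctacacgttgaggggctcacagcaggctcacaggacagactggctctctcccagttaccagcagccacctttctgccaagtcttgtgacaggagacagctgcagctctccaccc
*Ndufs7* (chr10:80249199-80249448, plus strand) holds the letters TATAAA from base -99, counted back from the start. *Ndufb8* (chr19:44555443-44555692, minus strand) holds the SP1 letters on the opposite strand. *Ndufb7* (chr8:83566508-83566757, plus strand) holds the GABPA letters from base -20 and far upstream TAATCC overlapping a TATAAA of the opposite strand. *Ndufa7* (chr17:33824322-33824571, plus strand, the first of 2 starts listed) holds TATAAA on the opposite strand from base -52. The bases after this *Ndufa7* start were not found in the gene's annotated transcripts, so its position is uncertain. *Cox8b* (chr7:140900447-140900696, minus strand) holds the letters AAGTCA on the opposite strand from base -181. The window of *Cox7a1* (chr7:30183921-30184170, plus strand), not printed, was read in the same way and held 0 matches to any of these motifs.

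RefSeq listed such a window for 65 of the 82 members. The NRF1 letters, named for a factor known to act on respiratory genes, stood in 8 of them (12.3%), against 3.07% of 27025 promoter windows in the table and 5.73% of the 8781 that belong to genes tested. These letters had been shortened after matches to a longer form were counted. The GABPA letters stood in 11 (16.9%, against 7.05% and 13.7%). The SP1 letters stood in 22 (33.9%, against 32.9% and 60.4%), the NR2E3 letters in 10 (15.4%, against 13.1% and 9.16%), the CRX letters in 6 (9.23%, against 6.38% and 5.14%), the TATA letters in 5 (7.69%, against 13.0% and 6.22%), the ERR letters in 1 (1.54%, against 0.366% and 0.273%) and the YY1 letters in 0 (against 4.53% and 4.15%). Among the 9 members called lower that had a window, 1 held the NRF1 letters, 3 the TATA letters and 4 the SP1 letters. Among the 8 called higher these numbers were 0, 0 and 2. The GABPA, CRX and NR2E3 letters each stood in 1 called lower and 1 called higher, and the YY1 and ERR letters in 0 of either. These matches are a description of the letters only.

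The mutated gene and the tissue were checked first. *Nr2e3* (chromosome 9, 59790578 to 59797886 of mm9) stood at 2493 and 1589 FPKM in the *rd7* libraries and at 385 and 394 FPKM in wild-type, which gives a log2 fold change of 2.35 (SE 0.20, limma adjusted p = 0.0011), and FPKM does not show whether its transcripts were spliced normally. Between 3.487e+07 and 3.56e+07 reads per library were estimated from the steps of the lowest values. From this, 31 to 44816 reads lay behind a member's value in a library. The counting error had a median of 0.023 as an SD on the log2 scale, and the standard error of the test a median of 0.0528 (range 0.0443 to 0.304). In some members the counting error was the larger, as in *Cox7a1* (0.141 against 0.0594), *Cox8b* (0.224 against 0.157), *Atp5s* (0.0891 against 0.0698) and *Ndufs5* (0.0664 against 0.0505). Intervals given here for fold changes come from the spread between libraries, drawn toward that of genes of like level.

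Levels of the members differed far more between genes than between genotypes. The median over the 37 complex I genes was 114 and 119 FPKM in the *rd7* libraries and 131 and 132 FPKM in the wild-type libraries. The 4 genes of complex II had the lowest median (65.4 and 63.7 against 63.1 and 62.7 FPKM). The median was 196 and 189 against 195 and 186 FPKM over the 8 genes of complex III, 177 and 172 against 172 and 167 FPKM over the 15 of complex IV, and 188 and 201 against 194 and 185 FPKM over the 15 of complex V. Both *rd7* medians lay below both wild-type medians in complex I and barely above both in complex II, and the genotypes overlapped in complexes III, IV and V. The most abundant member of each complex was *Atp5b* (mean 619 FPKM), the β subunit of the catalytic head of the ATP synthase, *Cox6c* (573 FPKM) of complex IV, *Ndufa4* (472 FPKM) among the complex I names, *Uqcrh* (282 FPKM), the hinge protein of complex III, and *Sdha* (134 FPKM), the flavoprotein of complex II. Together the members took 3.69% and 3.59% of the summed FPKM of genes tested in *rd7* and 3.99% and 3.93% in wild-type libraries.

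**Figure D1:**
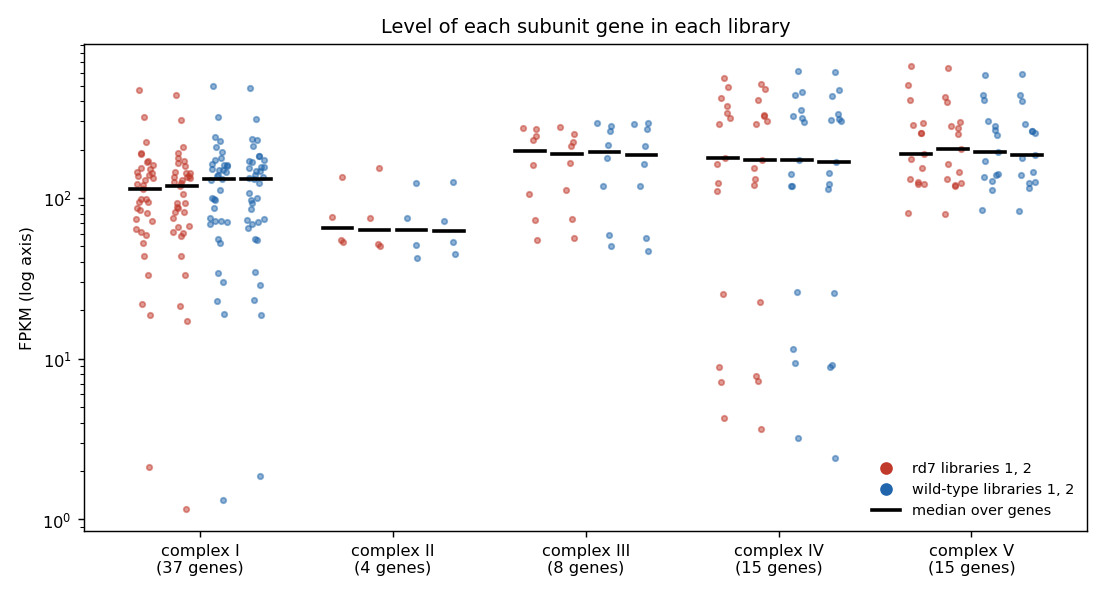
FPKM (log axis) of each subunit gene in each of the 4 libraries, grouped by complex, with *rd7* libraries in red, wild-type libraries in blue and black lines for the median over the genes. The complex I medians are 114 and 119 FPKM in *rd7* against 131 and 132 FPKM in wild-type, while those of the other complexes lie close together.

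In the test of *rd7* against wild-type over all genes (limma on log2(FPKM + 0.1), Benjamini-Hochberg adjustment over all genes tested, FDR of 5%), 12 of the 82 members were higher in *rd7*, 13 were lower and 57 were not called. Over all genes tested, 37.6% were called higher and 8.8% lower, while of the members 14.6% were called higher and 15.9% lower. The median log2 fold change of the members was -0.055, beside 0.147 over all genes tested, and 68 of the 82 lay below that median. All members lay between -0.45 and 0.49, and 0 moved by over 0.5 on the log2 scale, as 2029 of all genes tested did. In 38 members both *rd7* values lay below both wild-type values (19.5% of all genes tested did so) and in 21 both lay above (57.1% of all genes tested), and in 23 the genotypes overlapped.

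These counts depend on how the libraries were put on a common scale. FPKM corrects for depth but not for a few very abundant genes taking a share of the reads. When libraries were scaled by their median gene ratio, which brought the median of all genes from 0.147 to -0.0049, 2 members were higher and 46 lower (19.7% and 19.6% of all genes). Quantile normalization gave 3 and 34 (18.6% and 19% of all genes), and a correction of each library for exonic GC content and length gave 3 and 21 (12.4% and 15.1% of all genes). The median of the members was then -0.21, -0.14 and -0.09. The median of the members stayed below that of all genes tested under each of these scalings, while the counts of calls in each direction shifted. A stricter FDR of 1% left 2 higher and 4 lower (20.4% and 3.52% of all genes), a test without a filter on low FPKM 3 and 5 (10.3% and 2.08%), and one without a variance trend 5 and 8 (35.1% and 7.34%). Leaving out *rd7* library 1 gave 11 and 21 (41% and 12.7% of all genes) and leaving out *rd7* library 2 gave 17 and 16 (43.3% and 11.6%). The calls dropped more without a wild-type library, where the spread within a genotype could be taken from the *rd7* pair only. The median log2 fold change of the members was -0.0457 without wild-type library 1 and -0.0691 without wild-type library 2, beside -0.055 with all libraries. Without wild-type library 1, only *Uqcrc2* was still called higher and *Ndufs7* lower, and without wild-type library 2 only *Ndufs1* and *Uqcrc2* higher and *Ndufs7* lower. Calls over all genes also dropped, to 10.2% higher and 1.77% lower without wild-type library 1 and to 16.8% and 2.67% without wild-type library 2.

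**Figure D2:**
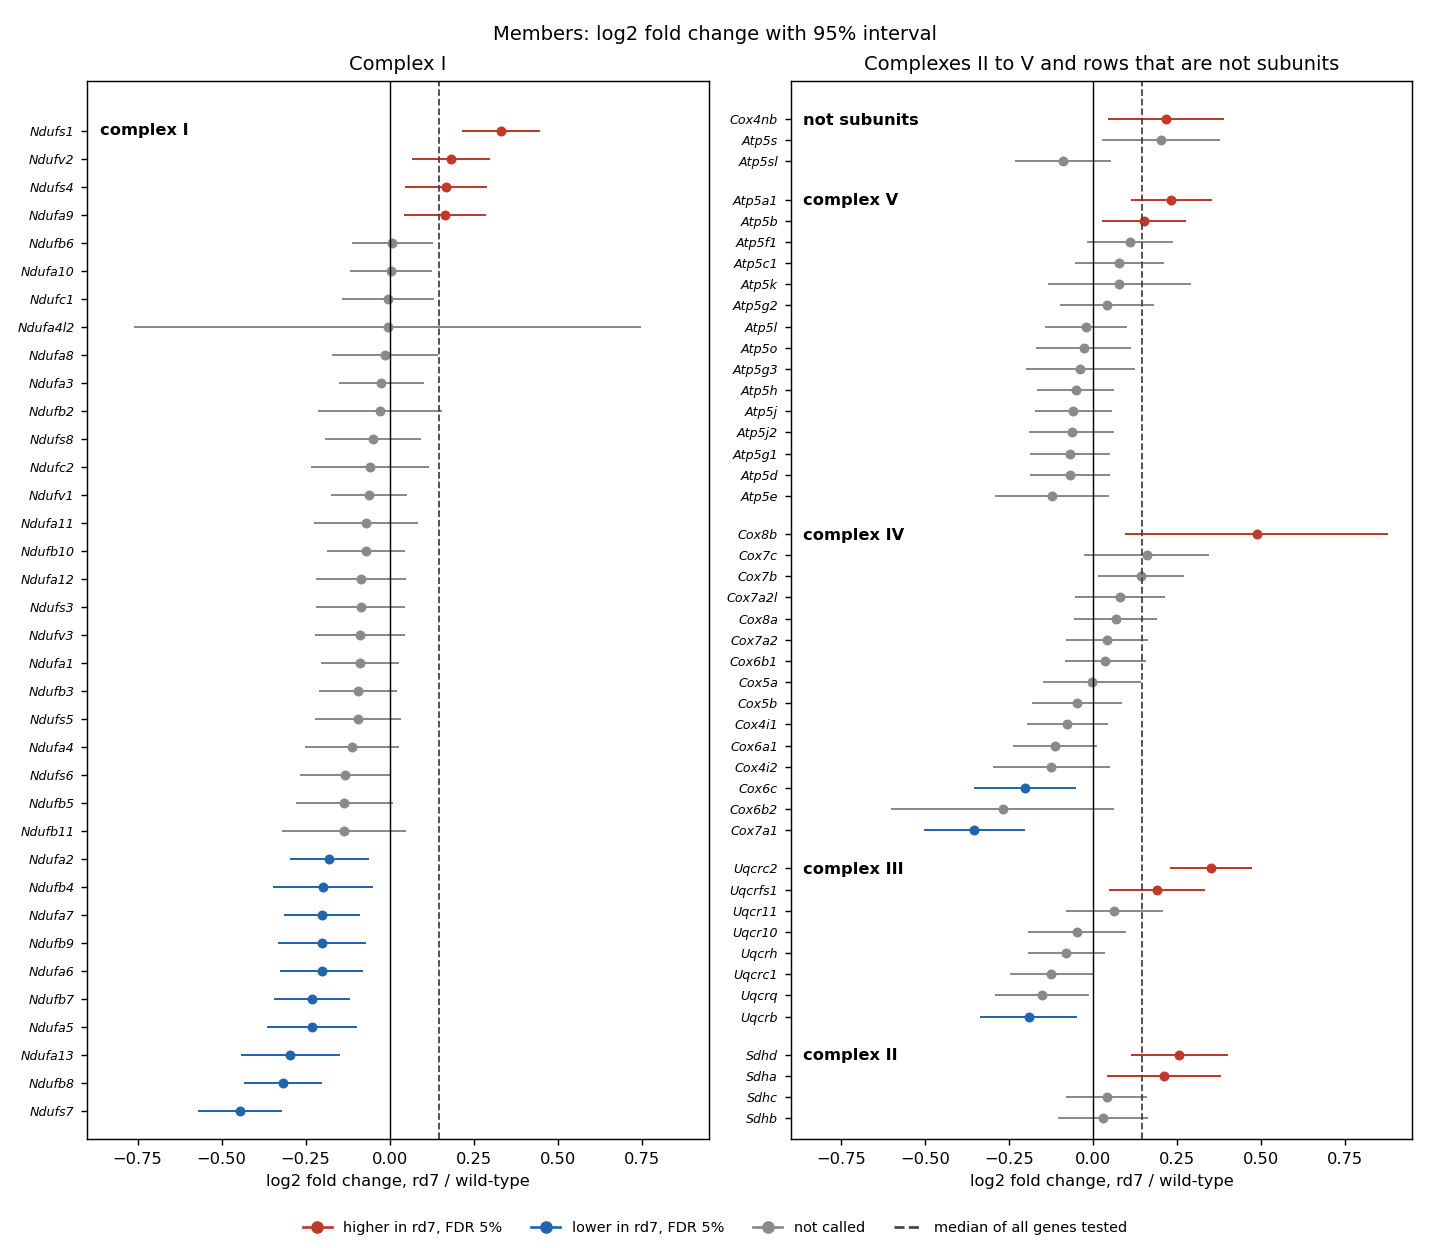
Log2 fold change (*rd7* over wild-type) of each member with its 95% interval from limma, by complex, with red for members called higher, blue for called lower and grey for not called, and a dashed line at the median of all genes tested (0.147). 1 complex I gene is not drawn. In complex I, 31 of all 37 genes lie below 0, while all 4 genes of complex II lie above 0.

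Complex I held 10 of the 13 members called lower and 4 of the 12 called higher, of 37 genes (27.0% and 10.8%). The shares over all genes tested, to set beside the counts of each complex, were 8.8% lower and 37.6% higher. The median log2 fold change of complex I was -0.09, and 22 of its genes had both *rd7* values below both wild-type values (19.5% of all genes tested did). *Ndufs7*, which carries the last iron-sulphur cluster before ubiquinone, had the largest fall of any member. It stood at 94.9 and 92.7 FPKM in *rd7* and at 131 and 125 FPKM in wild-type libraries (93.8 ± 1.58 and 128 ± 4.48, SD, n = 2). The log2 fold change was -0.45 (SE 0.05, limma adjusted p = 0.00216). This is a difference of -26.6%, several times the spread within either genotype. *Ndufs7* lies on chromosome 10 of mm9 from 79712197 to 79719537, and no run of 50 bases of its transcript recurs elsewhere in the genome. It was called lower in all 9 refits that used all libraries (-0.43 to -0.60) and with any library left out.

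*Ndufb8*, an accessory subunit of the membrane arm, stood at 190 and 190 FPKM in *rd7* and at 240 and 234 FPKM in wild-type libraries (log2 fold change -0.32, SE 0.05, limma adjusted p = 0.00407). The falls of *Ndufb7* (133 and 133 against 158 and 155 FPKM, -0.23) and *Ndufa7* (129 and 129 against 149 and 147 FPKM, -0.20) were smaller. The values of these genes did not overlap between genotypes. *Ndufb7* sits on the side of the membrane arm that faces the intermembrane space, and *Ndufa7* belongs to the matrix arm. The other genes called lower were accessory subunits too, namely *Ndufa13* (-0.30), *Ndufa5* (-0.23), *Ndufa6* (-0.20), *Ndufb9* (-0.20), *Ndufb4* (-0.20) and *Ndufa2* (-0.18). Of these 6, only *Ndufa5* was also called lower with the GC content and length correction, while all 6 were called lower under quantile normalization and median-ratio scaling. Part of *Ndufb4* recurs elsewhere in the genome (41.3% of its 50-base runs), and the loci of *Ndufa13* and *Ndufa2* overlap those of *Tssk6* and *Tmco6*, so reads on the shared bases cannot be assigned with certainty.

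The 4 complex I genes called higher include 2 of the core subunits of the NADH-oxidizing module. *Ndufs1*, its largest subunit and the holder of several iron-sulphur clusters, stood at 43.4 and 43.3 FPKM in *rd7* and at 34.3 and 34.5 FPKM in wild-type libraries (log2 fold change 0.33, SE 0.05, limma adjusted p = 0.00363). The pools of a genotype were nearly equal, and the gap between genotypes was far wider than either pair. *Ndufv2*, an iron-sulphur protein of the same module, stood at 80.2 and 82.3 against 72.3 and 70.9 FPKM (0.18). The accessory genes *Ndufs4* (0.17) and *Ndufa9* (0.16) were called higher by a similar size. With the GC content and length correction none of the 4 was called, at 0.04 for *Ndufs1*, -0.10 for *Ndufv2*, -0.08 for *Ndufs4* and 0.05 for *Ndufa9*, and only *Ndufs1* was called higher with median-ratio scaling or quantile normalization.

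The core subunits *Ndufs3*, *Ndufv1* and *Ndufs8* were not called. *Ndufs3*, a core subunit of the matrix arm, stood at 64.3 and 61.6 against 68.5 and 65.2 FPKM (-0.09). *Ndufv1*, which binds the flavin and NADH, stood at 94.6 and 93.2 against 98.1 and 97.7 FPKM (-0.06), and *Ndufs8*, an iron-sulphur protein, at 72.1 and 67.1 against 70.5 and 73.6 FPKM (-0.05). Values of *Ndufs3* and *Ndufv1* did not overlap between genotypes, and these and *Ndufs8* were called lower under quantile normalization and under median-ratio scaling. The most abundant row of this name family, *Ndufa4*, stood at 469.9 and 438 against 494 and 486 FPKM (-0.11, limma adjusted p = 0.150). Its protein was first assigned to complex I and is now placed in complex IV. Its paralog *Ndufa4l2*, known as a gene of hypoxia, lay at 2.12 and 1.16 against 1.33 and 1.87 FPKM, where no difference was detectable (95% interval of the log2 fold change -0.76 to 0.74).

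A ratio of genes within a library is not moved by a factor common to the library, as in median-ratio scaling, though quantile normalization and the GC content and length correction do move it. The ratios that follow are of the deposited FPKM. The ratio of *Ndufs7* to *Ndufs1* was 2.19 and 2.14 in *rd7* and 3.81 and 3.61 in wild-type libraries, a pair chosen after their values were seen. Summed over the complexes, the FPKM of complex I was 1.20 and 1.21 times that of complex V in *rd7* and 1.34 and 1.35 times in wild-type libraries. Against complex IV it was 1.32 and 1.35 times, and 1.43 and 1.44 times in wild-type libraries. Against complex III it was 3.21 and 3.22 times, and 3.35 and 3.34 times in wild-type libraries. Against complex II it was 14.1 and 13.3 times, and 16.7 and 16.3 times in wild-type libraries. Both *rd7* libraries lay below both wild-type libraries in each of these ratios. With the GC content and length correction the median log2 fold change of complex I (-0.11) was no longer below that of complex V (-0.14). No test of the difference between complexes was run, and an exact permutation test of 2 against 2 libraries cannot give a two-sided p under 0.333.

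**Figure D3:**
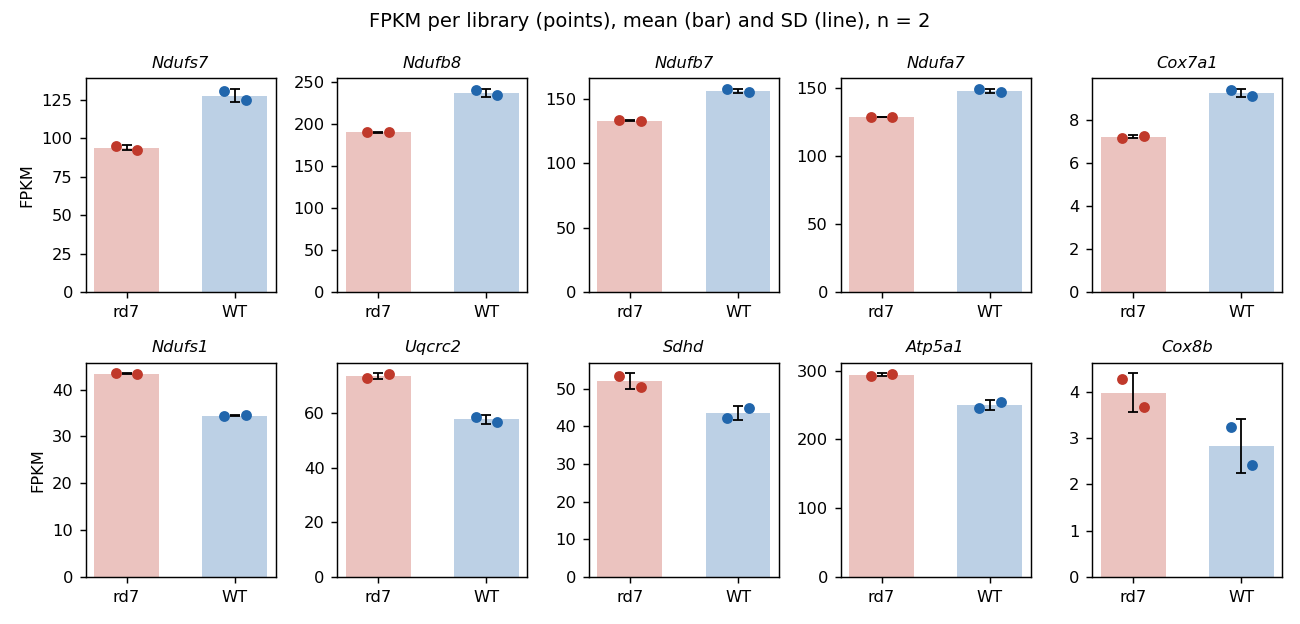
FPKM of 10 members in each library (points), with the mean of each genotype as a bar and the SD over its 2 libraries as a line, on axes that start at 0. *Ndufs7*, *Ndufb8*, *Ndufb7*, *Ndufa7* and *Cox7a1* are lower in both *rd7* libraries and *Ndufs1*, *Uqcrc2*, *Sdhd*, *Atp5a1* and *Cox8b* higher.

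Complex II is the succinate dehydrogenase of the citric acid cycle and is encoded by nuclear genes alone. All 4 of its genes had a log2 fold change above 0 (median 0.13), 2 were called higher and 0 lower. *Sdhd*, a membrane anchor, stood at 53.5 and 50.6 FPKM in *rd7* and at 42.2 and 44.9 FPKM in wild-type libraries (0.26, SE 0.06, limma adjusted p = 0.016). *Sdha* stood at 136 and 153 against 123 and 126 FPKM (0.21, SE 0.07, limma adjusted p = 0.0476), with *rd7* library 2 well above the other 3. The iron-sulphur subunit *Sdhb* (54.7 and 51.8 against 51.1 and 53.1 FPKM, 0.03) and the anchor *Sdhc* (76.1 and 75.5 against 75.2 and 72.3 FPKM, 0.04) were not called. The median of the complex was close to that of all genes tested (0.147), and median-ratio scaling, quantile normalization and the GC content and length correction brought it to -0.03, 0.0079 and -0.02. Under each of these 3 scalings 0 genes of complex II were called higher, and *Sdhc* was called lower with the GC content and length correction (-0.17). *Sdhd* lies on chromosome 9, 9.39 Mb from *Nr2e3*, and of the other 4 members on that chromosome (*Atp5l*, *Cox5a*, *Cox7a2* and *Uqcrc1*) 0 were called.

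Complex III had 8 members, of which 2 were called higher and 1 lower (median log2 fold change -0.06). *Uqcrc2*, one of the 2 large core proteins on the matrix side, stood at 73.0 and 74.4 FPKM in *rd7* and at 58.9 and 56.7 FPKM in wild-type libraries (0.35, SE 0.05, limma adjusted p = 0.00349). It was called higher with any library left out and in 8 of 9 refits, the exception being the GC content and length correction (0.08, limma adjusted p = 0.25). Its partner *Uqcrc1* stood at 106 and 112 against 119 and 119 FPKM (-0.12, limma adjusted p = 0.0835), so that the ratio of *Uqcrc1* to *Uqcrc2* was 1.46 and 1.50 in *rd7* and 2.01 and 2.09 in wild-type libraries. *Uqcrfs1*, the Rieske iron-sulphur protein, stood at 54.6 and 56.3 against 50.5 and 46.8 FPKM (0.19, limma adjusted p = 0.0385), a call lost under all 3 scalings. *Uqcrb*, a small subunit near the ubiquinone site, stood at 241 and 223 against 261 and 269.5 FPKM (-0.19, limma adjusted p = 0.039), and 61.5% of its 50-base runs recur elsewhere in the genome. *Uqcrh* (273 and 276 against 291 and 289 FPKM, -0.08), the other small subunits *Uqcrq* (-0.15), *Uqcr10* (-0.05) and *Uqcr11* (0.06) were not called.

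In complex IV, whose catalytic core is encoded in mitochondrial DNA, 1 of 15 genes was called higher and 2 lower (median log2 fold change -0.0041). *Cox6c*, the most abundant, stood at 557 and 510 FPKM in *rd7* and at 619 and 608 FPKM in wild-type libraries (-0.20, SE 0.06, limma adjusted p = 0.038). *Cox7a1*, the isoform of heart and skeletal muscle, stood at 7.17 and 7.27 against 9.39 and 9.11 FPKM (-0.35, SE 0.06, limma adjusted p = 0.00634). These values came from 92 to 121 estimated reads per library, with a counting error (0.141) above the standard error. The call was lost with the GC content and length correction (-0.14). *Cox8b*, another muscle isoform, stood at 4.27 and 3.67 against 3.23 and 2.42 FPKM (0.49, SE 0.16, limma adjusted p = 0.0485), from 31 to 55 estimated reads per library, a call that did not hold under quantile normalization, median-ratio scaling, a test without a trend or a test without a filter. The 12 genes not called include *Cox4i1* (420 and 408 against 440 and 433 FPKM, -0.08), *Cox8a* (492 and 478 against 458 and 469 FPKM, 0.07) and *Cox7c* (375 and 327 against 316 and 311 FPKM, 0.16), of whose 50-base runs 79.3% recur elsewhere. With the GC content and length correction *Cox8a* was called higher (0.28, limma adjusted p = 0.013), as was *Uqcr11* of complex III (0.26, limma adjusted p = 0.0164), and of the 12 members called higher without it only *Cox8b* was kept.

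Several complex IV subunits come in tissue isoforms, and the ubiquitous one was by far the more abundant in every pair. *Cox4i2*, known as the lung isoform, made up 5.66% and 5.20% of the *Cox4i1* and *Cox4i2* sum in *rd7* and 5.61% and 5.59% in wild-type libraries. The share of *Cox7a1* in the sum with *Cox7a2* was 3.88% and 4.06% against 5.17% and 5.18%, and that of *Cox8b* in the sum with *Cox8a* was 0.861% and 0.762% against 0.702% and 0.514%. The share of *Cox6b2*, known from testis, beside *Cox6b1* was 2.76% and 2.52% against 3.68% and 2.85%. *Cox6a2* made up under 1% of its sum with *Cox6a1* in every library (0.153% and 0.181% against 0.193% and 0.174%). *Cox7a2* (0.04) and *Cox7a2l* (0.08), whose protein joins complexes III and IV, were not called.

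In complex V, 2 of 15 genes were called higher and 0 lower (median log2 fold change -0.03). *Atp5a1* and *Atp5b*, the α and β subunits of the catalytic head, were these genes. *Atp5a1* stood at 292 and 296 FPKM in *rd7* and at 245 and 255 FPKM in wild-type libraries (0.23, SE 0.05, limma adjusted p = 0.012), and *Atp5b* at 661 and 641 against 584 and 588 FPKM (0.15, SE 0.05, limma adjusted p = 0.0485). *Atp5a1* was still called with quantile normalization but not with median-ratio scaling (0.08) or the GC content and length correction (0.12). *Atp5b* was called in only 2 of the 9 refits, and stood at -0.0029 with median-ratio scaling and at -0.14 with the GC content and length correction. The subunits of the stalk, *Atp5c1* (154 and 146 against 140 and 144 FPKM, 0.08) and *Atp5d* (131 and 131 against 135 and 139.5 FPKM, -0.07), were not called. The 3 genes that encode the same mature c subunit of the rotor ring kept nearly the same proportions, with *Atp5g1* at 21.6% and 19.9% of their sum against 21.2% and 21.8%, *Atp5g2* at 33.4% and 33.9% against 32.2% and 32.4%, and *Atp5g3* at 44.9% and 46.2% against 46.6% and 45.8%. Every 50-base run of *Atp5g2* and 86.8% of those of *Atp5g1* recur elsewhere in the genome, as do 89.4% of *Atp5l*, so these levels are uncertain.

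**Figure D4:**
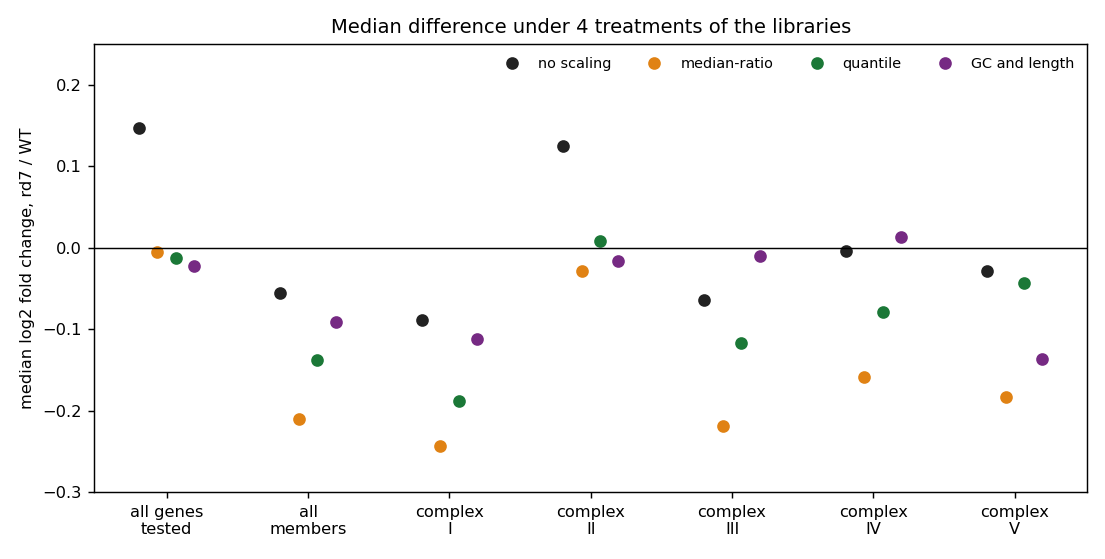
Median log2 fold change (*rd7* over wild-type) of all genes tested, of all members and of the genes of each complex without further scaling and under median-ratio scaling, quantile normalization and the GC content and length correction. The medians of complexes I and V are below that of all genes in each case, and the complex II median moves from 0.13 to near 0.

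The medians of complexes I, III and V lay below 0 under every scaling. That of complex I was -0.24, -0.19 and -0.11 under median-ratio scaling, quantile normalization and the GC content and length correction. Complex III moved to -0.22, -0.12 and -0.01, complex IV to -0.16, -0.08 and 0.0135, and complex V to -0.18, -0.04 and -0.14. In the same order, lower calls numbered 26, 23 and 10 of 37 in complex I, and 8, 4 and 5 of 15 in complex V, where the unscaled test called 0. Over all genes, 19.6%, 19% and 15.1% were called lower under these scalings. Length and base composition differed between members called higher and lower. The 12 members called higher had a median exonic length of 2248 bp, a GC content of 48.0% and a median level of 54.3 FPKM. For the 13 called lower these were 1170 bp, 53.0% and 145 FPKM. The 57 not called, at 1214 bp, 50.9% and 144 FPKM, were close to those called lower in length and level. Across the 82 members, the log2 fold change had a Pearson correlation of 0.147 with log2 exonic length and of -0.30 with GC content (Spearman 0.141 and -0.273), beside 0.216 and -0.303 (Spearman 0.28 and -0.436) across 12258 genes tested that have an annotation. The genes share the same 4 libraries, so these are descriptions. Members were short, with a median exonic length of 1265 bp beside 3753 bp over all genes tested.

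Among other members whose reads are hard to place, *Ndufs5* stood near 22 FPKM while a copy of it on chromosome 16, listed as *BC002163*, stood at 109, 111 (*rd7*), 122 and 116 FPKM (wild-type), and 60.7% of the 50-base runs of *Ndufs5* recur elsewhere. The locus of *Atp5j* is shared with a row named *LOC654426*, listed at 143 to 168 FPKM with the status LOWDATA in every library, and with the start of *Gabpa*. More than 10% of the 50-base runs recur elsewhere in 25 members, and none in 39. Also, 3 rows that match the names are not known as subunits. *Cox4nb*, a subunit of the endoplasmic reticulum membrane complex that lies beside *Cox4i1*, was called higher (19.0 and 21.2 against 16.9 and 17.5 FPKM, 0.22, limma adjusted p = 0.0467), a call lost under all 3 scalings. *Atp5s* (5.35 and 5.42 against 4.76 and 4.58 FPKM, 0.20) and *Atp5sl* (14.9 and 14.1 against 15.6 and 15.3 FPKM, -0.09) were not called.

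Genes around the chain were read from lists. Beside their counts stand the 37.6% of all genes tested called higher and the 8.8% called lower (median log2 fold change 0.147). Of 38 assembly factors, 9 were called higher and 5 lower (median log2 fold change 0.10). *Ecsit*, an assembly factor of complex I, fell from 19.9 and 19.6 FPKM in wild-type to 15.5 and 14.6 FPKM in *rd7* libraries (-0.39, limma adjusted p = 0.00417), and the row *6330578E17Rik* had the largest rise (0.52). Of 6 subunits and carriers that the name patterns miss, *Ndufab1*, the mitochondrial acyl carrier protein, was called higher (0.21), and *Cyc1*, the cytochrome of complex III, stood at 105 and 106 against 105 and 107 FPKM (-0.0094, 95% interval -0.12 to 0.10). Of 8 genes for the exchange of nucleotides and phosphate, the outer membrane channels and creatine kinase, only *Vdac3* was called (0.18). Of 76 genes for mitochondrial ribosomal proteins, 9 were called higher and 9 lower (median 0.02), with *Mrpl49* (0.38) and *Mrpl54* (-0.43) at the ends. Under median-ratio scaling, quantile normalization and the GC content and length correction, 28, 25 and 17 of these 76 were called lower. Called higher were 1, 1 and 2. Of the assembly factors, 9, 8 and 7 were called lower and 3, 3 and 2 higher. Of all genes, 19.6%, 19% and 15.1% were called lower and 19.7%, 18.6% and 12.4% higher.

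Of 14 genes of the citric acid cycle, 6 (42.9%) were called higher and 0 lower (median 0.16). Over all genes tested, 37.6% were called higher and 8.8% lower, with a median of 0.147. With each scaling only 1 gene of the cycle was called higher, and 1 was called lower with the GC content and length correction. Of all genes, 19.7%, 18.6% and 12.4% were called higher with median-ratio scaling, quantile normalization and the GC content and length correction. *Idh3a*, the catalytic subunit of the NAD-dependent isocitrate dehydrogenase, rose from 39.6 and 41.1 FPKM in wild-type to 68.9 and 65.2 FPKM in *rd7* libraries (0.73, SE 0.05, limma adjusted p = 0.000807) and was called in all 9 refits. It lies on chromosome 9, as *Nr2e3* does. Of 14 regulators of respiratory genes, 3 were called higher and 1 lower (median -0.08). Under median-ratio scaling, quantile normalization and the GC content and length correction, 6, 6 and 4 of these 14 were called lower. Called higher were 2, 2 and 1. *Esrrb*, an orphan nuclear receptor expressed in rods, fell from 103 and 92.4 FPKM to 58.4 and 72.0 FPKM (-0.59, limma adjusted p = 0.00861), while its relative *Esrrg* rose from 18.3 and 19.1 FPKM to 27.4 and 28.4 FPKM (0.58, limma adjusted p = 0.00138). *Gabpa* (0.37), whose start overlaps the locus of *Atp5j*, and *Yy1* (0.29) were also called higher. The coactivator *Ppargc1a* stood at 8.37 and 8.46 against 9.23 and 9.96 FPKM (-0.19, limma adjusted p = 0.0616). It was called lower in 3 of the 9 refits, whose log2 fold changes ran from -0.55 to -0.17. *Nrf1* (-0.09) and *Esrra* (-0.25) were not called in the main test.

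**Figure D5:**
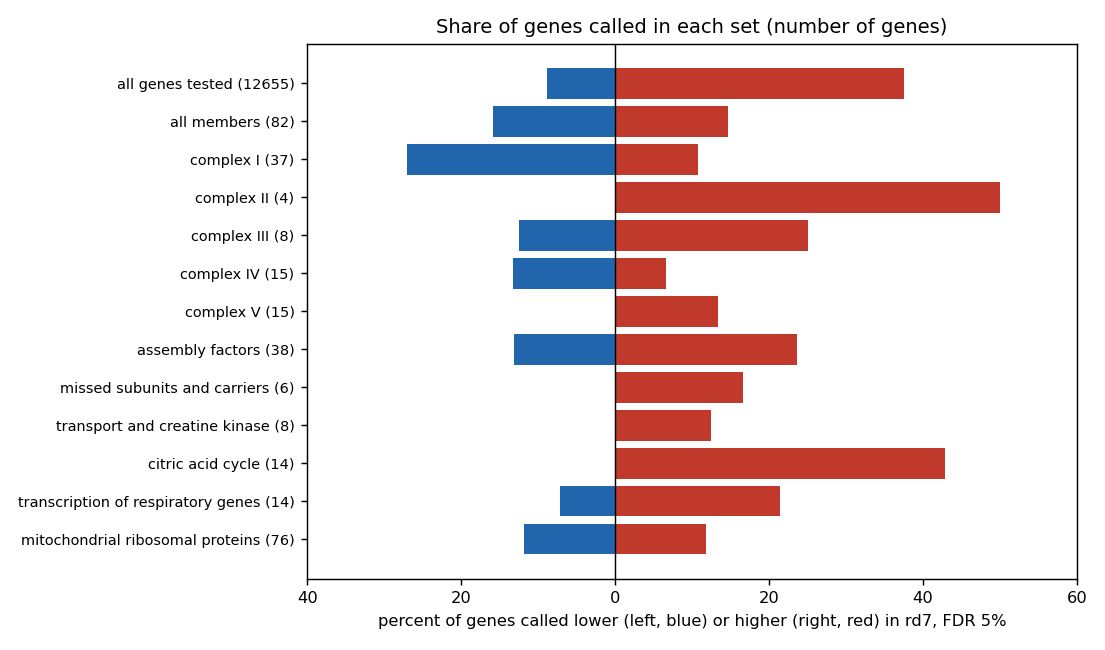
Percent of genes called lower (blue, left) and higher (red, right) in *rd7* at an FDR of 5%, for all genes tested, the members, each complex and 6 lists of related genes, with the number of genes in brackets. All genes tested give 37.6% higher and 8.8% lower, and complex I gives 10.8% and 27.0%.

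Cell type markers were read in the same libraries, beside the 37.6% of all genes tested that were called higher and the 8.8% called lower. The 7 rod markers tested summed to 9166 and 9874 FPKM in *rd7* and to 12644 and 12885 FPKM in wild-type libraries, with 4 called lower and 0 higher. The 10 cone markers summed to 4517 and 4809 against 1453 and 1497 FPKM, with 8 called higher and 0 lower. *Arr3* (0.08) and *Opn1mw* (-0.16) were not called. The study describes the rods of *rd7* mice as hybrid, so more cone cells and cone genes expressed in rods cannot be told apart here. Bipolar cell markers summed to 236 and 213 against 158 and 160 FPKM (4 of 5 higher), amacrine cell markers to 287 and 298 against 243 and 255 FPKM (3 of 4), Müller glia markers to 1897 and 1792 against 1714 and 1775 FPKM (3 of 6), and ganglion cell markers to 622 and 557 against 572 and 586 FPKM (1 of 4), the last with overlapping sums. Of the 5 pigment epithelium markers, 3 were tested and called higher (summed 54.9 and 50.8 against 30.1 and 17.9 FPKM), and 3 of 4 blood rows were called lower (76.7 and 161 against 235 and 317 FPKM). Of the markers listed, 0 were at 0 in every library. The part of these values in the differences of the members was not tested.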

How the data were processed

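RNA-seq was analysed from 2 *rd7* and 2 wild-type libraries. Per the labels, single reads were mapped to mm9 with TopHat 1.4.1, and the deposited FPKM are Cufflinks 1.3.0 estimates that the authors made for every gene in each library. The authors' Cuffdiff table holds their own comparison (pooled FPKM, fold changes, p-values) and was not used. The deposited FPKM hold no counts, so no count model was used.

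Of 22095 loci, 262 without a successful estimate in every library were left out. Values were taken as log2(FPKM + 0.1), which understates changes of low genes, and genes with a mean of at least 1 FPKM went into limma 3.58.1 under R 4.3.3 (moderated variances with a trend on level, two-sided, Benjamini-Hochberg over all genes tested, FDR of 5%), without a block. With 2 pools per genotype, p-values rest on the spread between pools, drawn toward that of genes of like level. Other steps used Python 3.11.15 and pandas 2.3.3. Simulated data were used to test this fit.

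The members and lists were chosen with earlier results of these data known, and the promoter motifs after the files were read, with the NRF1 motif shortened after matches to a longer form had been counted. Full values are given for the most abundant member, the 2 largest rises and 2 largest falls called without overlap in each complex, catalytic subunits, paralogs, rows not known as subunits, *Nr2e3*, and the largest rise and fall called in each list with *Esrrb*, *Ppargc1a* and *Cyc1*. Other genes were added after their values were seen. The values of 1 member, which is in all counts and medians, are not reported here. Exonic length, GC content and repeated 50-base runs came from the mm9 genome with Gencode vM1, which matched 96.9% of genes tested. Promoter sequences are from RefSeq (GRCm38.p6). Depth was estimated from genes with a single transcript of over 800 bp, within 0.02 to 0.036 FPKM times kb, and covers counting error only. Alternatives were pseudocounts of 1 and 0.01, no filter, a mean of at least 5 FPKM, median-ratio scaling, quantile normalization, no trend, a GC content and length correction, a replicate block, each library left out, and an FDR of 1%.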

Additional observations from a re-analysis of the deposited data

How the results depend on the processing

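The 12 higher and 13 lower calls among the members became 3 and 5 without a filter on low FPKM, 5 and 8 without a trend, 2 and 4 at an FDR of 1%, 3 and 34 with quantile normalization, 3 and 21 with the GC content and length correction and 2 and 46 with median-ratio scaling. With each library left out they ranged from 1 to 17 higher and from 1 to 21 lower, the lowest without a wild-type library. Pseudocounts of 1 and 0.01 and a mean of at least 5 FPKM left both counts within 1.5 times. No member called in the main test was called in the other direction under any setting. Depth limits *Cox8b*, *Cox7a1* and *Ndufa4l2* most.

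The replicate numbers did not pair the libraries (deviations of the libraries numbered 1 correlated at -0.0265 across 12655 genes). A fit with the replicate number as a block called 8 members higher and 13 lower (35.6% and 8.62% of all genes tested).

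The median log2 fold change of the members (-0.055) was -0.209, -0.137 and -0.0907 with median-ratio scaling, quantile normalization and the GC content and length correction. In the same order, complex II gave -0.0288, 0.00788 and -0.0164, and complex III -0.219, -0.117 and -0.0104. Under median-ratio scaling and quantile normalization, complex I gave -0.243 and -0.188 and complex IV -0.158 and -0.0792, and complex V gave -0.183 and -0.137 with median-ratio scaling and the GC content and length correction. With each library left out, the median ranged from -0.0697 to -0.0457 for all members, -0.118 to -0.0711 for complex I, 0.0973 to 0.141 for complex II, -0.0976 to -0.0312 for complex III, -0.0339 to 0.0257 for complex IV and -0.042 to -0.00483 for complex V.

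The sign of the log2 fold change turned in 15, 10 and 23 of the 82 members with median-ratio scaling, quantile normalization and the GC content and length correction, and the cause was not tested. The genes given next are those among the 61 named by the rule. With median-ratio scaling, *Atp5b* (-0.0029), *Atp5c1* (-0.076), *Atp5g2* (-0.113), *Cox6b1* (-0.118), *Cox7a2* (-0.113), *Cox7a2l* (-0.0748), *Cox8a* (-0.0875), *Sdhb* (-0.123) and *Sdhc* (-0.114) turned. With quantile normalization, *Atp5c1* (-0.0359), *Atp5g2* (-0.0257), *Cox6b1* (-0.00786), *Cox7a2* (-0.0409), *Cox7a2l* (-0.0169), *Cox8a* (-0.0146), *Sdhb* (-0.106) and *Sdhc* (-0.0856) turned. With the GC content and length correction, *Atp5b* (-0.137), *Atp5c1* (-0.0451), *Atp5s* (-0.0844), *Cox4i1* (0.0768), *Cox4i2* (0.0135), *Cox6a1* (0.0783), *Cox7a2* (-0.0104), *Cox7a2l* (-0.00719), *Cyc1* (0.0898), *Ndufa4l2* (0.13), *Ndufab1* (-0.128), *Ndufs4* (-0.0759), *Ndufs8* (0.0705), *Ndufv2* (-0.0969), *Sdha* (-0.0379), *Sdhc* (-0.169) and *Vdac3* (-0.0227) turned. With a pseudocount of 1, *Ndufa4l2* (0.00517) turned. With each library left out in turn, *Atp5g2* (-0.00626 to 0.0886), *Atp5g3* (-0.0963 to 0.0211), *Cyc1* (-0.0219 to 0.00308), *Ndufa4l2* (-0.416 to 0.404), *Ndufs8* (-0.102 to 0.00117) and *Sdhb* (-0.00859 to 0.0698) covered both signs.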
